A study of Mus musculus with 12 samples.

Results

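The genes described here are 10 regulators of blood vessel growth and of endothelial cells, out of 24881 gene symbols with a measured value. They comprise the receptors *Tek*, *Tie1*, *Kdr*, *Flt1* and *Eng*, the ligand *Vegfa*, the transcription factors *Tal1*, *Gata2* and *Epas1*, and the matrix protease *Mmp2*. They were taken by symbol, and several had been selected on their lower FPKM in the P53-/- libraries of 2i ESCs. The comparison of P53-/- and WT in 2i is therefore described for them with no test, as is the effect of culture, in which the same libraries take part, while the effect of P53 loss in serum was tested. Expression is given as FPKM (fragments per kilobase, corrected for transcript length and for the size of each library), so that levels of different genes can be compared. Of the 10 genes, 8 reached a mean of 0.5 FPKM over all libraries and were among the 12572 genes tested, whereas *Tie1* and *Flt1* stayed below it. *Tek* reached it only through the WT 2i libraries and *Gata2* only through those of P53-/- 2i, groups that are not compared in the serum test.

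RNA-seq had been performed on R1 mouse ESCs with FUCCI reporters, fluorescent tags that report where a cell is in its cycle. Every sample shares this reporter line and was sorted for G1 phase. WT and P53-/- ESCs were grown in serum or in 2i, which gives 4 groups of 2 libraries, prepared from total RNA depleted of ribosomal RNA. Serum ESCs grow in a heterogeneous state with active ERK signaling, whereas 2i medium blocks the kinases MEK and GSK3 and holds ESCs in the ground state. P53-/- ESCs were made with CRISPR/Cas9 through a cut in an exon shared by the *Trp53* isoforms and are single-cell clones. Clones 1 and 2 were used for RNA-seq, and which clone a library came from is not given in the sources used here. Libraries within a group are numbered by their order in the table. For the WT libraries no source used here says that they were separate cultures, so p values reflect the spread between these libraries, which may be technical. A further 4 of the 12 samples (P21-/- ESCs and their WT 2i controls) were not analysed here.

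Blood vessels form when endothelial precursors respond to VEGF ligands through the receptor tyrosine kinases encoded by *Kdr* and *Flt1*. Angiopoietin signaling through TEK, with TIE1 as its partner, and TGF-beta and BMP signaling through the co-receptor endoglin then shape and stabilize the vessel wall. The factors TAL1 and GATA2 act in precursors of blood and endothelium, and the HIF subunit encoded by *Epas1* links low oxygen to target genes that include *Vegfa*. ESCs are pluripotent cells and not endothelium, and *Vegfa* is transcribed by many cell types.

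The libraries held an estimated 5200000 to 13000000 fragments, a scale known up to a common factor, and 15181 to 15792 genes had a value above 0. *Trp53* itself stood at 7.25 and 1.88 FPKM after P53 loss in 2i, against 26.8 and 33.7 for WT. In serum it stood at 16.8 and 3.68 for P53-/- against 77.6 and 75.1 for WT. The P53-/- libraries thus kept part of the transcript and lay below all WT libraries of their culture. On the log2 scale *Trp53* differed by -2.98 in 2i, which passed the test (SE 0.74, limma adjusted p = 0.0547). In serum its difference of -3.26 did not pass (SE 0.74, limma adjusted p = 0.150). *Cdkn1a*, the P53 target that encodes P21, fell by 2.24 in 2i and by 2.18 in serum on the log2 scale (limma, adjusted p = 0.00218 and 0.00601). *Mdm2*, which encodes the ubiquitin ligase of P53, fell by 1.94 in 2i and by 1.83 in serum (limma, adjusted p = 0.000585 and 0.00217). The 10 ESC markers were present in every group, with summed levels of 3658 to 4580 FPKM. Of 8 endothelial markers, *Emcn* was listed at 0 in every library and *Cdh5*, the endothelial cadherin, reached at most 0.0589 FPKM, whereas others were present. *Pecam1*, which ESCs also transcribe, was the highest of the 8 in every library, at 16.6 to 39.1 FPKM of a summed level of 37.6 to 59.2. *Egfl7* was at 7.81 to 14.1, and in serum *Robo4* was at 4.98 to 8.40 and *Esam* at 3.52 to 4.67. The 7 markers other than *Pecam1* summed to 14.9 to 24.9.

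*Tek*, which encodes the angiopoietin receptor, was most abundant in WT 2i. The WT 2i libraries held 1.38 and 2.35 FPKM, those of WT serum 0.608 and 0.641, those of P53-/- serum 0.393 and 0.416, and those of P53-/- 2i 0.267 and 0.475. The WT 2i libraries lay above all others, WT serum came next, and the P53-/- groups overlapped each other at the bottom. In 2i the P53-/- mean was 4.14-fold lower than WT, a difference of -2.05 on the log2(FPKM + 0.1) scale, on which all differences are given and which understates changes of low genes. The P53-/- 2i values rest on an estimated 11.9 and 12.1 fragments, against 50.6 and 56.8 in WT 2i. In serum the libraries also stood apart, but the difference of -0.52 did not pass the test (SE 0.43, limma adjusted p = 0.690). *Tie1*, which encodes the partner receptor of TEK, was close to 0 throughout. Both P53-/- serum libraries list it at 0, while WT serum held 0.0762 and 0.107 FPKM. The P53-/- 2i libraries were at 0.0525 and 0.0467, those of WT 2i at 0.0951 and 0.0971. P53-/- was below WT in each culture, yet no library held more than an estimated 4.2 *Tie1* fragments, and the WT groups of the 2 cultures overlapped.

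The VEGF receptor genes showed smaller differences. *Kdr*, which encodes the main signaling receptor for VEGF-A, had 1.43 and 1.10 FPKM for WT against 0.627 and 0.634 for P53-/- in 2i. In serum the WT libraries were at 0.788 and 0.618, those of P53-/- at 0.623 and 0.685. WT 2i alone stood above the rest, and the other 3 groups overlapped. The P53-/- mean was 1.85-fold lower in 2i (-0.89), and the difference of -0.08 in serum was far inside its error (SE 0.34, limma adjusted p = 0.958). *Flt1*, which encodes a VEGF receptor that binds the ligand tightly and signals weakly, varied more between libraries of a group than between groups. The FPKM of the 2i libraries was 0.351 and 0.0587 for WT and 0.0772 and 0.306 for P53-/-, and that of the serum libraries 0.262 and 0.193 for WT and 0.121 and 0.207 for P53-/-. All neighbouring groups overlapped, and the difference in 2i was 0.00.

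*Eng* was the only member that passed the test for P53 loss in serum. It encodes endoglin, a co-receptor for TGF-beta family ligands in endothelium. In serum, the WT libraries held 3.09 and 2.64 FPKM and those of P53-/- 0.299 and 0.183. In 2i, WT held 4.11 and 4.69 and P53-/- 1.40 and 1.01. None of the 4 groups overlapped, and both P53-/- groups lay below both WT groups. *Eng* fell 8.79-fold in serum, a log2 difference of -3.14 with an SE of 0.30 (limma, adjusted p = 0.00477). The call held in all 17 alternative settings, with an adjusted p from 0.00256 to 0.0949 and a difference from -3.55 to -1.64. The highest of these p values came from a fit of the serum libraries only, and the smallest difference from a pseudocount of 1. In 2i the P53-/- mean was 3.48-fold lower (-1.80), and whether the cultures differ in this effect was not tested, since the 2i libraries took part in the choice of genes. The P53-/- serum values rest on an estimated 6.1 to 12.3 fragments, against 63.2 to 137.3 in WT serum. With 2 libraries a group, the smallest two-sided p of an exact permutation test is 0.333, so the model across all genes carries this result.

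**Figure D1:**
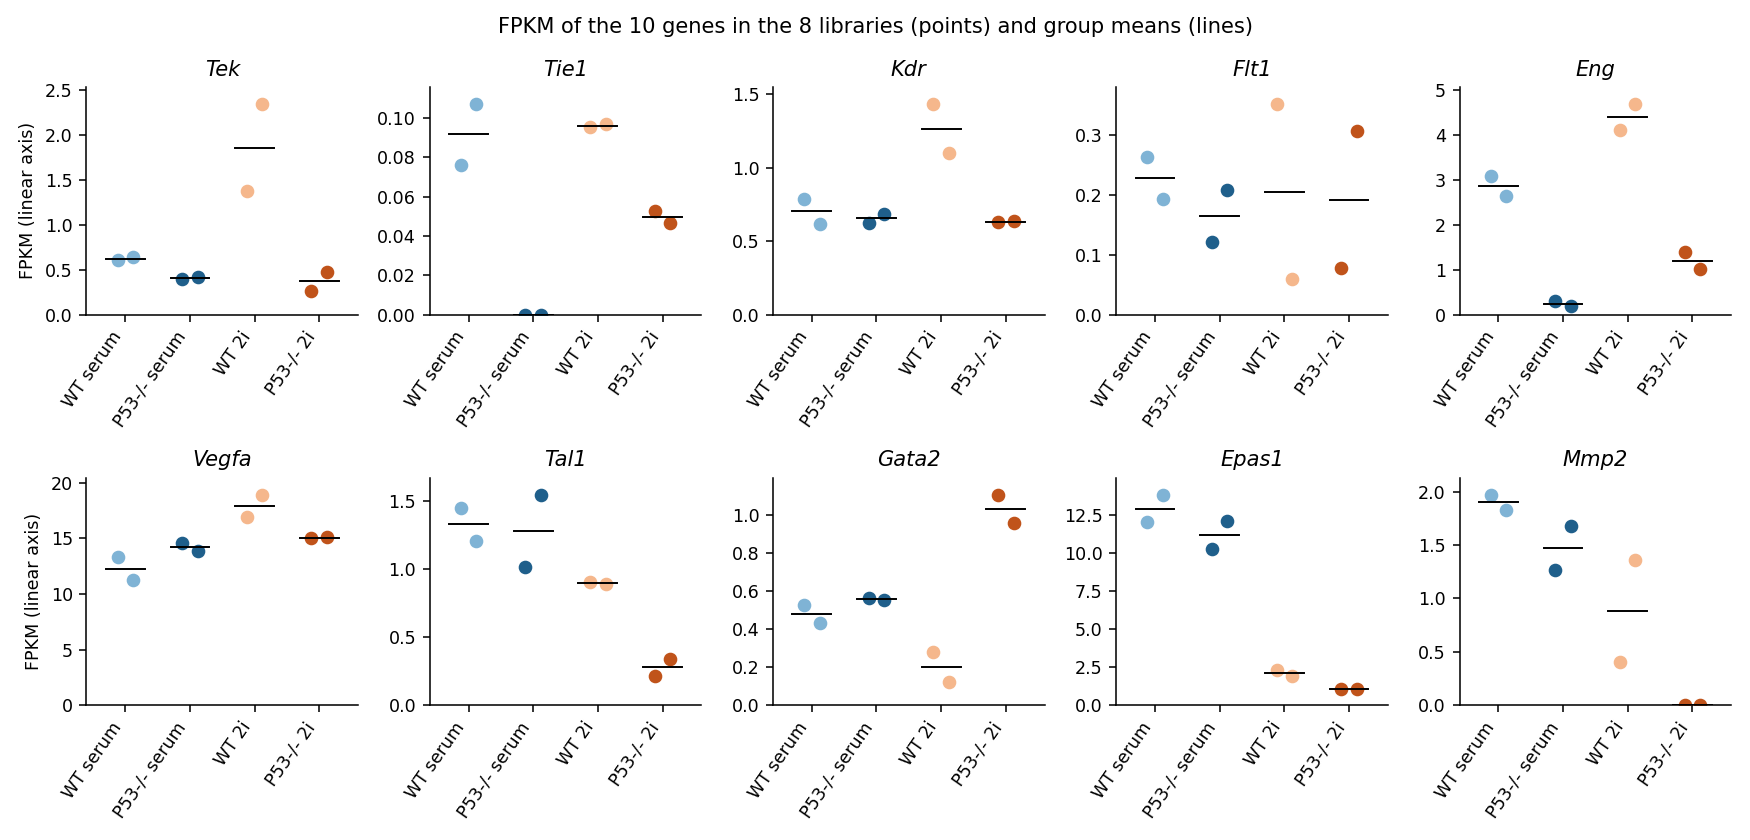
FPKM (linear axes starting at 0, a separate scale per gene) of the 10 genes in the 8 libraries, with points for libraries and black lines for the mean of each group of 2. *Eng* is lower in P53-/- than in WT in both cultures, *Mmp2* is listed at 0 in P53-/- 2i, and *Gata2* is highest in P53-/- 2i, at 1.11 and 0.957.

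*Vegfa* encodes the principal growth factor for endothelial cells and had the highest mean of the members in every group but WT serum, where *Epas1* was slightly higher. WT 2i libraries held 16.9 and 18.9 FPKM, P53-/- 2i libraries 15.0 and 15.1, P53-/- serum libraries 14.6 and 13.9, and WT serum libraries 13.3 and 11.3. The groups followed each other in this order without overlap, within a narrow range. The P53-/- mean was 1.19-fold lower than WT in 2i (-0.25) and lay above it in serum, where the difference of 0.21 did not pass the test (SE 0.13, limma adjusted p = 0.584). Its values rest on an estimated 272.5 to 603.5 fragments per library.

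Among the transcription factors, *Tal1* and *Epas1* were lower and *Gata2* was higher in P53-/- 2i than in WT 2i. *Tal1*, a basic helix-loop-helix factor that specifies blood and endothelial precursors, had 0.217 and 0.343 FPKM for P53-/- against 0.902 and 0.891 for WT in 2i. In serum its level was 1.02 and 1.55 for P53-/- against 1.45 and 1.21 for WT. P53-/- 2i was the lowest group, WT 2i lay between, and the serum groups overlapped at the top. The P53-/- mean was 2.66-fold lower in 2i (-1.41), where its values rest on an estimated 7.8 and 8.9 fragments, and the serum difference was -0.07 (SE 0.37, limma adjusted p = 0.970).

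*Gata2*, a zinc finger factor of blood stem cells and endothelium, took the opposite course. The P53-/- 2i libraries had the highest FPKM, 1.11 and 0.957, followed by 0.562 and 0.551 for P53-/- serum, 0.529 and 0.431 for WT serum, and 0.277 and 0.121 for WT 2i. The groups did not overlap, and the 2i groups formed the top and the bottom of the order. The P53-/- mean was 3.91-fold higher in 2i (1.97), where the WT values rest on an estimated 2.3 to 7.8 fragments. In serum the difference was 0.18 (SE 0.45, limma adjusted p = 0.915). *Epas1*, which encodes HIF-2 alpha, had 12.02 and 13.8 FPKM for WT serum, 10.2 and 12.1 for P53-/- serum, 2.29 and 1.95 for WT 2i, and 1.03 and 1.07 for P53-/- 2i. The serum groups overlapped and lay far above the 2i groups, which stood apart from each other. In 2i the P53-/- mean was 1.92-fold lower (-0.94), and in serum the difference was -0.21 (SE 0.18, limma adjusted p = 0.704).

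*Mmp2* encodes a gelatinase that degrades basement membrane collagen. It was listed at 0 in both P53-/- 2i libraries, while WT 2i had 0.405 and 1.36 FPKM, an estimated 9.8 and 21.8 fragments. In serum its FPKM was 1.27 and 1.68 for P53-/- against 1.97 and 1.83 for WT. No fold is given for 2i because the lower group is at 0, and the serum difference of -0.36 did not pass the test (SE 0.54, limma adjusted p = 0.846). The WT 2i libraries differed more from each other than those of the other groups, and their range overlapped that of P53-/- serum. In bulk RNA, fewer cells that transcribe a gene and less RNA per cell cannot be told apart, for *Mmp2* as for the other members.

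Across the 10 genes, the P53-/- libraries lay below both WT libraries for 8 genes in 2i, above them for *Gata2*, and overlapped them for *Flt1*. Such separation was found for 24.7% of all genes tested in the lower and 29.0% in the higher direction, and nothing is read from the members' count because this comparison chose several of them. The median difference in 2i over the 9 genes other than *Mmp2* was -0.89, and nothing is read from it either, for the same reason. In serum the P53-/- libraries lay below WT for 4 genes (*Tek*, *Tie1*, *Eng* and *Mmp2*), above for *Vegfa* and *Gata2*, and overlapped for the other 4. The shares over all genes tested were 21.8% and 25.7%. A gene was called when its adjusted p was below 0.1 and its fold change above 1.5. By this rule, 1 of the 8 tested members changed in serum, a fall, where 1.02% of all genes tested were called, 0.883% lower and 0.135% higher. *Eng* was also the only tested member with an unadjusted p under 0.05. The median serum difference over the 8 was -0.15, against 0.02 over all genes tested. A missed threshold does not show that the other 7 were unaffected in serum, given errors of 0.13 to 0.54.

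**Figure D2:**
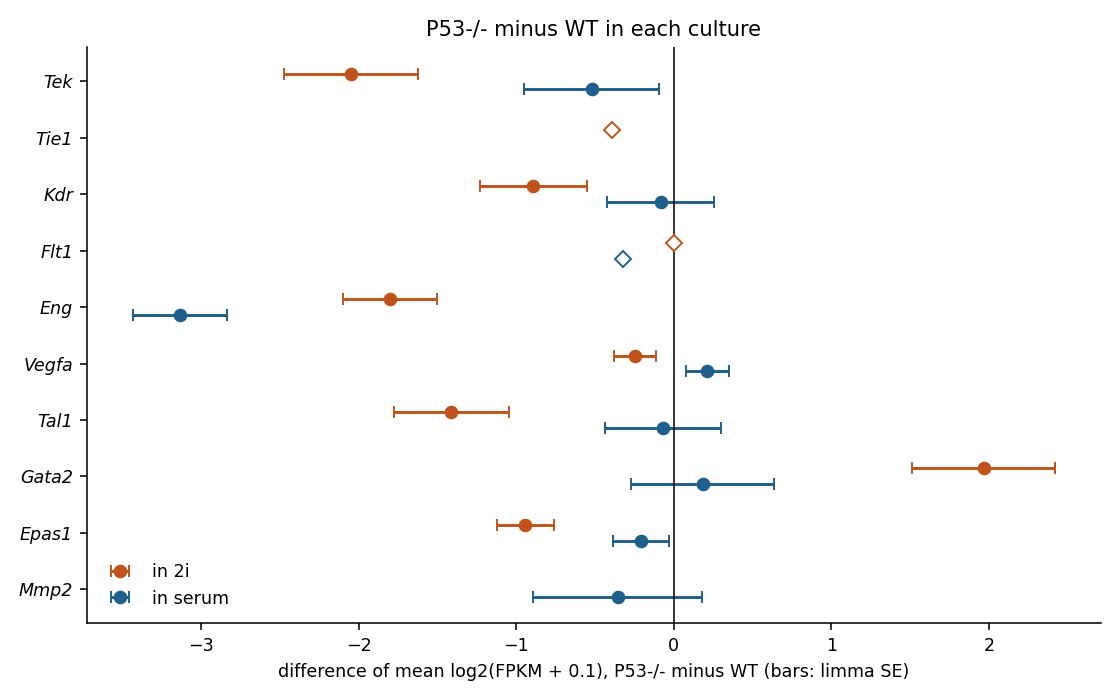
Difference of mean log2(FPKM + 0.1), P53-/- minus WT, in 2i (orange) and serum (blue), with limma standard errors as bars and open diamonds without bars for *Tie1* and *Flt1*, which were not tested. *Eng* lies at -1.80 and -3.14, *Gata2* at 1.97 in 2i, and the 2i value of *Mmp2* and the serum value of *Tie1* are left out because a group is listed at 0.

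The sums of some lineage marker lists did not overlap between genotypes, while those of the endothelial and blood lists overlapped in both cultures. Among single genes tested, such separation was found for 24.7% (lower) and 29.0% (higher) in 2i and for 21.8% and 25.7% in serum. Of the 24 tested markers, 2 were called in 2i and 0 in serum, beside 10.3% and 1.02% of all genes tested. In serum the 8 fibroblast markers summed to 8.80 to 10.5 FPKM for P53-/- against 7.73 to 8.30 for WT, held by *Thy1* at 8.65 to 10.5 against 7.55 to 8.21, a difference not called. The lists that follow were low. The summed level of 8 primitive endoderm markers was 1.30 to 1.53 FPKM in P53-/- serum against 3.09 to 3.12 in WT serum, and 1.63 to 2.34 in P53-/- 2i against 2.62 to 4.37 in WT 2i. That of 8 primitive streak markers was 2.42 to 2.84 against 3.50 to 4.05 in serum and 2.49 to 3.29 against 5.16 to 5.48 in 2i. The 8 trophoblast markers summed to 3.09 to 3.78 in P53-/- 2i against 1.90 to 2.59 in WT 2i, a rise held by *Krt7* alone (1.94 to 2.39 against 0.165 to 0.883), since the other 7 summed to 0.697 to 1.85 against 1.71 to 1.73. In serum the 8 summed to 1.51 to 1.70 for P53-/- against 0.932 to 1.25 for WT, with *Krt7* at 0.190 or less. A mean of 0.5 FPKM was reached by 0 to 2 of the 8 primitive endoderm, 1 to 2 of the 8 primitive streak and 0 to 3 of the 8 trophoblast markers in a group, and *Prl3d1*, *Tpbpa* and *Plac1* of the trophoblast list were at 0 everywhere. Their part in the results for *Eng* and the other members was not tested. Blood markers summed to 0.327 to 3.20 FPKM, with the embryonic globins *Hbb-bh1* and *Hba-x* at 0 in every library, and the fibroblast markers *Col3a1* and *Postn* were also at 0 throughout. On the chromosomes that carry the members, the median P53-/- minus WT difference ran from -0.03 to 0.24 in 2i and from -0.05 to 0.09 in serum, and *Eng*, on chromosome 2, had medians of -0.03 and -0.05 around it.

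The sequences just upstream of *Eng*, *Tek* and *Gata2* are shown because *Eng* was lower in P53-/- ESCs in both cultures, *Tek* was the receptor gene with the largest difference in 2i, and *Gata2* was the member with the opposite direction. They are the 250 bases before the annotated start (RefSeq, GRCm38.p6, plus strand), at chr2:32646345-32646594 for *Eng*, chr4:94739039-94739288 for *Tek* and chr6:88193641-88193890 for *Gata2*. Capitals mark GGAA on either strand, the core of ETS sites, which are common in endothelial enhancers.
Eng: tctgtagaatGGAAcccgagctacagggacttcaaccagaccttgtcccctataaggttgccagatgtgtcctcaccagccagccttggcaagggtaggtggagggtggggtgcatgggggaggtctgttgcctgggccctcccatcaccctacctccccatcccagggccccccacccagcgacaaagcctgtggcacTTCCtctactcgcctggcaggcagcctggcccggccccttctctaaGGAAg
Tek: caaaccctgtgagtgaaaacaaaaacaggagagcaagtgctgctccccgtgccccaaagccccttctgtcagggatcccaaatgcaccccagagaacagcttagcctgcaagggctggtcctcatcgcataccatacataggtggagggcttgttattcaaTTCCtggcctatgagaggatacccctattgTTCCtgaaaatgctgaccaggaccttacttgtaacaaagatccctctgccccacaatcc
Gata2: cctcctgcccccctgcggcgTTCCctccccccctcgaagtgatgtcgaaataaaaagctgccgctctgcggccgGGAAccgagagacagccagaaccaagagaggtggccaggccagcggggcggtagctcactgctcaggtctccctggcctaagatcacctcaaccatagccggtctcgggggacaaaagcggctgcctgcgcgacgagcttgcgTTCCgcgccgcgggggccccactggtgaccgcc
The core occurred 3 times in the *Eng* window, 2 times in the *Tek* window and 3 times in the *Gata2* window, and 93.4% of the 32851 such windows of all genes hold at least 1. RefSeq windows were at hand for 8 members, 11 windows in all, and *Epas1* and *Mmp2* had none. The P53 half-site was searched on both strands and was in 0 of the 11 windows, against 7.13% of all windows. GATAA was in 2 of the 11 (22.6% of all), for *Tal1* and *Vegfa*, the E-box CANNTG in 5 (66.2%), and the HIF core ACGTG in 1, for *Vegfa* (16.6%). ACGTG can lie inside CANNTG, and otherwise no motif contains another. These counts describe letters in a short window and say nothing of binding.

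Culture was compared as the mean of the 4 2i libraries against the mean of the 4 serum libraries, a contrast that weighs both genotypes equally. The 2i libraries on which several genes were chosen enter it, so for the members it is a description with no test. *Epas1* differed most among the members with a fold, with a mean 7.57-fold lower in 2i (-2.92), made up of -2.55 in WT and -3.29 in P53-/-. *Tal1* differed by -1.19, made up of -0.52 in WT and -1.86 in P53-/-, and *Mmp2* is given no fold since P53-/- 2i is listed at 0. *Eng* had a mean 2.42-fold higher in 2i (1.27). The difference of *Tek* was 0.63, and it ran from 0.31 with quantile normalization to 0.81 without library 1 of WT 2i. *Vegfa*, *Kdr* and *Gata2* differed by 0.31, 0.36 and -0.11. Of the 8 fibroblast markers, *Thy1* alone fell with culture, with 7.55 to 10.5 FPKM in serum libraries and 0.343 to 0.972 in 2i libraries. The other 7 summed to 0.0857 to 0.183 in serum and 0.368 to 0.595 in 2i. Their part in the culture differences was not tested.

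Within each genotype the culture difference took different forms, described here with no test because the 2i libraries also served the choice of genes. In WT, *Tek* was 2.62-fold, *Kdr* 1.70-fold, *Eng* 1.52-fold and *Vegfa* 1.46-fold higher in 2i than in serum. *Epas1* was 5.87-fold, *Mmp2* 2.33-fold, *Gata2* 2.00-fold and *Tal1* 1.43-fold lower in WT 2i, and *Tie1* and *Flt1* overlapped. The libraries thus stood apart for 4 genes in each direction, as they did for 40.0% (higher) and 41.7% (lower) of all genes tested. In P53-/-, *Tek*, *Kdr* and *Flt1* overlapped between the cultures, with differences of -0.13, -0.04 and 0.04. *Eng* was 3.84-fold and *Gata2* 1.72-fold higher in P53-/- 2i than in P53-/- serum, and *Epas1* was 9.75-fold and *Tal1* 3.62-fold lower. *Vegfa* was apart by 0.08, and for *Mmp2* and *Tie1* a group is at 0. Counting these, 4 genes were apart higher and 3 lower, beside 39.7% and 42.1% of all genes tested.

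**Figure D3:**
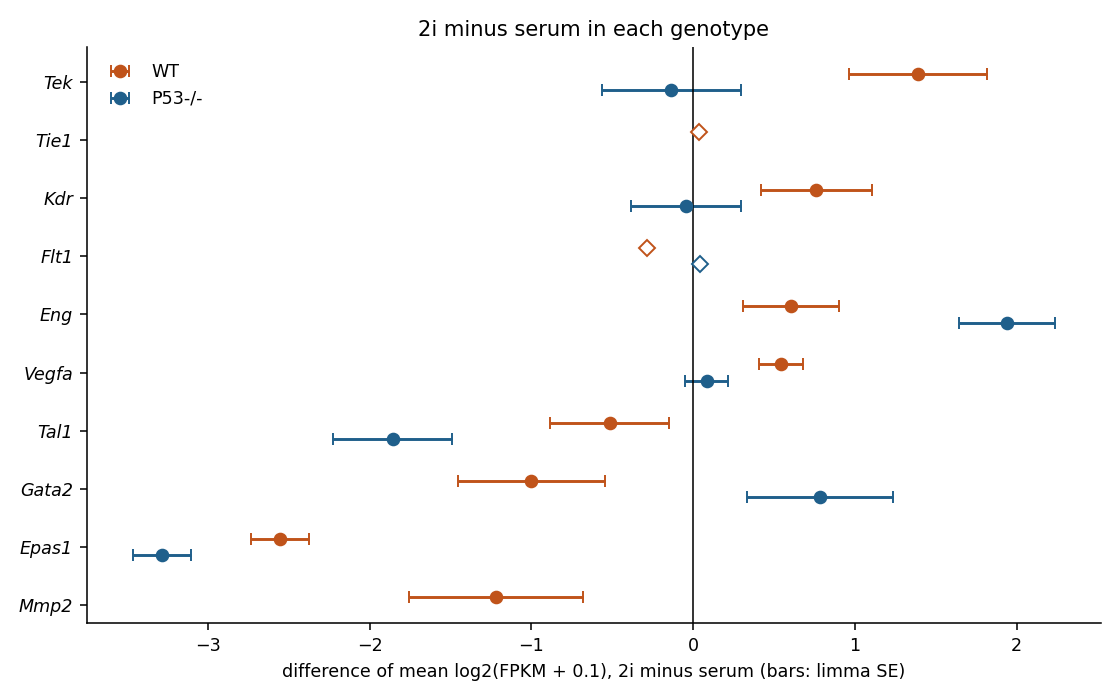
Difference of mean log2(FPKM + 0.1), 2i minus serum, in WT (orange) and P53-/- (blue) ESCs, with limma standard errors as bars and open diamonds for the untested *Tie1* and *Flt1*. *Tek* lies at 1.39 in WT and -0.13 in P53-/-, *Gata2* at -1.001 and 0.78, and *Epas1* at -2.55 and -3.29.

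To set the members beside the rest of the pathway, 99 further symbols were listed by role, of which 98 were in the table and 57 were tested. In serum, 0 of the 57 were called for P53 loss by limma, near the 1.02% called among all genes tested. An unadjusted limma p under 0.05 was found for 6 (11.3% of all genes tested), and the median difference of the 57 was 0.00. In 2i, 9 of the 57 were called, 3 higher and 6 lower, against 10.3% of all genes tested (4.36% higher and 5.97% lower). An unadjusted p under 0.05 was found for 20 of the 57, beside 25.2% of all genes tested, and the median difference of the 57 was -0.21. Of the 17 matrix genes, proteases and inhibitors, 4 fell and 1 rose in P53-/- 2i. *Col4a1*, a chain of basement membrane collagen, had 0.0907 and 0.296 FPKM for P53-/- against 1.94 and 0.755 for WT (-2.26, SE 0.45, limma adjusted p = 0.0291). Its partner chain *Col4a2* (-1.36, limma adjusted p = 0.0699) and *Col18a1*, whose product yields endostatin (-1.61, 0.0121), fell as well. The *Col4a2* call was lost in 10 of 17 alternatives. *Serpinf1*, which encodes the secreted angiogenesis inhibitor PEDF, had 9.04 and 6.08 FPKM for P53-/- against 0.618 and 0.809 for WT, the largest rise of the 57 (3.22, SE 0.57, limma adjusted p = 0.0206).

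Among 11 receptors and co-receptors, *Notch4* fell by 1.52 (limma, adjusted p = 0.0425) and *Ephb4*, the receptor of ephrin-B2, rose by 0.81 (0.0134), and the *Notch4* call was lost in 5 of 17 alternatives. Of 9 endothelial surface and junction genes, *Mcam*, an adhesion molecule of the vessel wall, fell by 1.39 (limma, adjusted p = 0.0175). Of 7 transcription factors, *Etv2*, an ETS factor of the endothelial and blood lineages, had 1.09 and 1.93 FPKM for P53-/- against 0.398 and 0 for WT. It is among the 9 called but is given with no test, because it reached the filter only through the P53-/- 2i libraries. None of the 6 ligands and 7 HIF and oxygen sensing genes was called by limma, with 0 and 2 at an unadjusted p under 0.05. The number of calls changed with the libraries fitted. A fit of the 2i libraries only left 1, *Serpinf1*, and 5 were left without library 1 of P53-/- 2i, without library 1 of WT serum or without library 2 of WT serum. Without library 1 of P53-/- 2i, the adjusted p of *Serpinf1* was 0.109. The P53 effect differed between cultures for 0 of the 57 by limma, where 0.207% of all genes tested were called, 0.103% lower and 0.103% higher. An unadjusted p under 0.05 was found for 13 of the 57, beside 13.1% of all genes tested. Without library 1 of WT 2i, *Col18a1* passed (-1.97, SE 0.29, limma adjusted p = 0.0871).

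**Figure D4:**
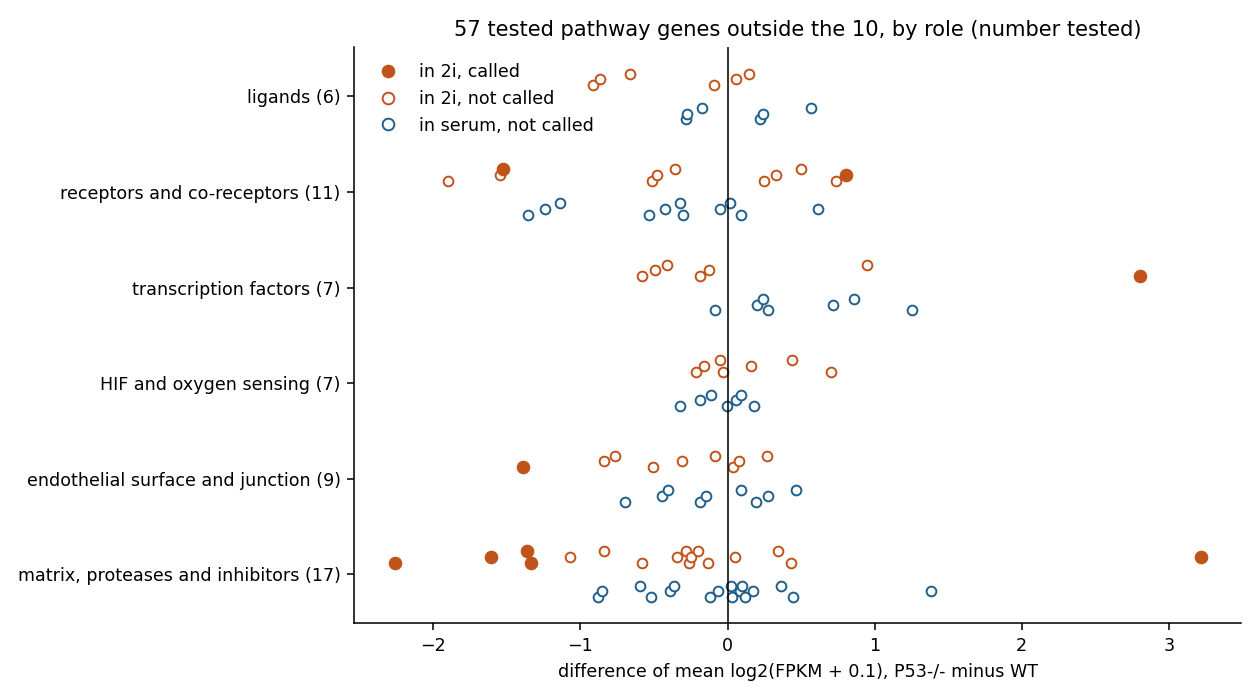
Difference of mean log2(FPKM + 0.1), P53-/- minus WT, for the 57 tested pathway genes outside the 10, in rows by role, with 2i in orange and serum in blue and filled points for called genes. The 9 called genes are all in 2i, from *Col4a1* at -2.26 to *Serpinf1* at 3.22.

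By culture, 40 of the 57 were called, 11 higher and 29 lower in 2i, beside 59.2% of all genes tested (28.6% higher and 30.6% lower). Lower genes outnumbered higher ones in every role list, among ligands (4 of 6 lower, 0 higher), receptors (6 lower and 3 higher of 11) and matrix genes (8 lower and 3 higher of 17). The same held for transcription factors (2 lower and 0 higher of 7), oxygen sensing (4 lower and 2 higher of 7) and surface and junction genes (5 lower and 3 higher of 9). The ligand genes *Vegfc* and *Vegfb* fell, with differences of -1.61 and -1.09 (limma, adjusted p = 0.000310 and 0.000917). *Efnb2* (-1.22) is among the 40 called but is given with no test, because its mean reached 0.5 FPKM only in serum, where it is high. In oxygen sensing, *Arnt*, which encodes the dimer partner of HIF-2 alpha (-1.23, limma adjusted p = 1.57e-05), the HIF prolyl hydroxylase gene *Egln3* (-2.43, 7.44e-06) and *Hif1an* (-1.63, 6.67e-06) fell in 2i, whereas *Vhl* and *Egln2* rose by 1.46 and 0.99 (9.19e-06 and 0.000135). The receptor gene *Bmpr2* fell (-2.05, limma adjusted p = 9.11e-06). *Tgfbr2*, whose product acts with endoglin, differed by 2.94, *S1pr1* by 5.23 and *Robo4* by -4.22. Their mean reached 0.5 FPKM only in 2i for *Tgfbr2* and *S1pr1* and only in serum for *Robo4*, so they are given with no test. *Ephb4* rose by 1.02 and *Notch4* fell by 2.74 (limma, adjusted p = 3.01e-05 and 2.99e-05). Among junction genes, *Esam* and *Mcam* fell, with differences of -2.24 and -2.09, and *Vwf*, *Cldn5* and *Pecam1* rose by 1.34, 1.32 and 0.87 (limma, adjusted p at most 0.00182). *Nos3* differed by -3.30 and is given with no test, because its mean reached 0.5 FPKM only in serum. The collagen genes *Col4a1*, *Col18a1* and *Col4a2* fell by 4.55, 3.10 and 2.89 (limma, adjusted p at most 3.33e-05), and *Serpinf1* and *Timp1*, which encodes an inhibitor of matrix proteases, rose by 1.98 and 1.21 (0.00267 and 1.89e-05). Of the 7 transcription factors, *Ldb1* and *Hhex* fell by 0.69 and 0.62 (limma, adjusted p = 0.000290 and 0.00870).

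Finally, the genes whose profile over the 8 libraries came closest were found for the 4 members whose group means span at least 2 on the log2 scale. Likeness was the root-mean-square distance between log2 profiles, each centred on its own mean, and is a description only. *Tek* was closest to *Htra1* (0.17), *Efna4* (0.30) and *Tert* (0.31), and *Htra1* ran at 15.2 and 20.2 FPKM in WT 2i against 3.47 and 6.90 in P53-/- 2i. *Eng* was closest to *Lpin1* (0.40), *Laptm5* (0.45) and *Lif* (0.46). These 3 genes were, like *Eng*, lower in both P53-/- libraries than in both WT libraries of each culture. *Epas1* was closest to *Tsix* (0.16), *Bcl2l11* (0.18) and *Spry2* (0.21), all higher in serum. *Mmp2* was closest to *Gm4013* (0.40), *Tgm3* (0.42) and *Dapk1* (0.47), and *Gm4013* was, like *Mmp2*, listed at 0 in both P53-/- 2i libraries.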

How the data were processed

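FPKM values of 8 libraries (4 groups of 2) were deposited by the authors as a single table. The submitters' processing notes name STAR, Cufflinks, DESeq2 and the build mm9, and the settings and the annotation are not given in the sources used here. Libraries were grouped by the genotype and culture in the column names, which carry no replicate number. No scaling was added. limma 3.58.1 (R 4.3.3) was run on log2(FPKM + 0.1) of 12572 genes, those whose mean over the libraries reached 0.5 FPKM, in a single fit of the 4 groups with a variance trend and Benjamini-Hochberg adjustment over all genes tested. A gene was called when its adjusted p was below 0.1 and its fold change above 1.5. Because the deposited FPKM values hold no counts, no count model was run. Scripts were tested on simulated data. Tables and plots used matplotlib 3.10.9, pandas 2.3.3 and numpy 2.4.6 in Python 3.11.15.

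Depth was estimated from the steps between low values of genes with a single transcript, with transcript lengths of GENCODE M21 (GRCm38), to which 24425 symbols matched by name. Chromosomes come from that annotation and promoter windows from RefSeq. As the notes give mm9, no coordinate of the authors' files was used.

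The 10 genes, the pathway and marker lists and the tests were chosen with earlier results of these data known. Named are the 10 genes, up to 3 called genes per direction, role list and comparison, called markers, *Trp53*, *Cdkn1a* and *Mdm2*, and the 3 closest profiles. Of the pathway genes this rule names, 1 is not reported here. Culture was planned as a test of the members and is described instead, since the libraries that chose them enter it. Alternatives were pseudocounts of 1 and 0.01, quantile normalization, median-ratio scaling, no filter, a filter at a mean of 1 FPKM, a fit of the compared groups, no variance trend, a fit without 1287 small RNA symbols, and each library left out in turn, where a lone library is assumed to vary like the other groups.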

Additional observations from a re-analysis of the deposited data

Results flagged for a closer look

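The P53-/- minus WT difference of *Vegfa* was -0.25 on the log2 scale in 2i and 0.21 in serum, with no overlap of libraries in either culture. The 2i minus serum difference of *Gata2* was -1.001 in WT and 0.78 in P53-/- ESCs, again with no overlap. For these genes the difference between the groups was not tested, because the 2i libraries took part in their choice. Opposite directions of P53 loss with no overlap of libraries in either culture were also seen for 7 of the 57 tested pathway genes, beside 7.6% of all genes tested. The 3 of them given here are those named for their culture difference, and none of these 3 was called for P53 loss in either culture. *Ldb1*, which encodes a partner of TAL1 and GATA factors, differed by -0.49 in 2i and 0.24 in serum (limma interaction, adjusted p = 0.192). *Hhex*, a homeobox gene of early endothelium, differed by -0.58 and 0.28 (limma interaction, adjusted p = 0.329), and *Egln3* by 0.70 and -0.32 (limma interaction, adjusted p = 0.253).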

How the results depend on the processing

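The 1 member called for P53 loss in serum and the 0 pathway genes called there were the same in number under every alternative run. The planned test of culture on the members is void, since libraries that chose them enter it, and nothing is read from its counts, which were 5, then 3 with a pseudocount of 1, 3 with a mean FPKM of at least 1 and 4 to 5 when single libraries were left out. The number of pathway genes called for culture was 40, with 38 to 42 on leaving out libraries. For P53 loss in 2i, 9 pathway genes were called, 1 in a fit of the 2i groups only and 5 to 11 on leaving out libraries. The count for the difference between cultures was 0, and 0 to 1 on leaving out libraries. The cause of these shifts was not tested. The median 2i difference over 9 members, -0.89, only describes the comparison that chose several of them. It became -0.47 with a pseudocount of 1, which shrinks differences of low genes by construction, and ran from -1.05 to -0.71 on leaving out libraries. No called value changed sign. Of the uncalled values near 0, the serum differences of *Kdr* and *Tal1* changed sign on leaving out libraries, with ranges of -0.237 to 0.069 and -0.349 to 0.209, and the culture difference of *Gata2* did so with a pseudocount of 1 (0.039) and on leaving out libraries (-0.301 to 0.084). The 2i difference of *Flt1*, 0.00, ran from -0.749 to 0.757 on leaving out libraries. No paired analysis was possible because the column names carry no replicate numbers. Leaving out a library left *Eng* called in serum in each case. Depth limits *Tie1*, *Flt1*, *Gata2* and *Mmp2* in WT 2i, *Tal1* and *Tek* in P53-/- 2i and *Eng* in P53-/- serum, each on few estimated fragments.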

Other observations

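Of the 24 tested marker genes of the lineage lists, 2 were called for P53 loss in 2i, beside 10.3% of all genes tested, and 16 by culture, beside 59.2%, both near the background. With P53 loss in 2i, *Klf4*, a pluripotency factor, fell. The keratin gene *Krt7* is the other of the 2 but is given with no test, because it reached the filter only through the P53-/- 2i libraries. No marker was called in serum. By culture, *Pou5f1*, *Cldn5*, *Pecam1* and *Vwf* were called higher in 2i, and *Sox2*, *Utf1*, *Tdgf1*, *Thy1*, *Eomes* and *Esam* were called lower (limma). Also among the 16 are *Spi1*, *Gata4*, *T*, *Cdx2* and *Krt7*, higher in 2i, and *Robo4*, lower. They are given with no test, because their mean reached 0.5 FPKM only in the culture where they are high.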
